A study of Mus musculus with 12 samples.

Results

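The constitutive proteasome subunit genes were followed in RNA-seq libraries of hematopoietic stem cells (HSCs) sorted from mouse bone marrow. Members were all gene names that start with Psma, Psmb, Psmc or Psmd followed by a number, without the inducible Psmb8, Psmb9 and Psmb10. This rule took 36 of 31272 gene names, 16 of the core (Psma and Psmb) and 20 of the regulatory particle (Psmc and Psmd). The 12 libraries fell into 4 groups of 3, all from wild-type (WT) mice: Ctrl, IR (ionizing radiation), Ab_IR and L_IR. Cells were collected 3 days after IR, and the labels spell out neither Ab nor L and give no age. The study's methods describe whole-body gamma irradiation and a sort on lineage-negative, Sca-1-positive, c-Kit-positive cells without Flt3 and CD34. Nothing in the labels says which libraries came from separate animals, so p-values measure only the spread between these libraries.

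The proteasome is the protease complex that degrades ubiquitin-tagged proteins. Its core is a barrel of alpha and beta rings with the proteolytic sites inside. The regulatory particle caps the barrel and consists of a base, with a ring of ATPases that unfold the substrate and open the gate, and a lid, which removes the ubiquitin chain. Core and regulatory particle are assembled with the help of dedicated chaperones. In many cell types the transcription factor NFE2L1, which binds antioxidant response elements, raises proteasome genes when proteolysis falls short. HSCs are known for low protein synthesis and for their sensitivity to disturbed protein turnover.

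Promoter sequences of 4 regulatory particle genes that were higher in IR and held an ETS motif, and of a pair of catalytic genes, are shown first, since motif shares were unequal between core and regulatory particle. RefSeq windows (GRCm38.p6) of 300 bases, 250 before to 50 after the start site, were matched for 29 of the 36 members, 12 of the core and 17 of the regulatory particle, in 31 windows. The letters CCGGAAG, to which ETS family factors bind, stood on either strand in 10 of 18 regulatory particle windows (55.6%) and in 1 of 13 core windows (7.69%), against 8.86% of all 32851 windows. The letters are in capitals in the following stretches, which print as CTTCCGG where the match is on the opposite strand. The Psmc1 and Psmd12 stretches are cut to the match and 10 bases on each side, since by the GENCODE annotation they lie inside a transcribed exon. Psmc1 lies at chr12:100110164-100110190, Psmd12 at chr11:107479501-107479527, Psmd2 at chr16:20651552-20651651 and Psmd11 at chr11:80428515-80428614, all on the plus strand.
Psmc1: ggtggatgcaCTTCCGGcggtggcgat
Psmd12: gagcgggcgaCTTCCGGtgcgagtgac
Psmd2: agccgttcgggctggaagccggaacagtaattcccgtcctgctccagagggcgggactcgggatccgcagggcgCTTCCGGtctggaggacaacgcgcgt
Psmd11: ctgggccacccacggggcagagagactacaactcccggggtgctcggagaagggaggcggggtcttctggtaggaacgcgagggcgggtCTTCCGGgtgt

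The match began at -28 from the start site in Psmc1, -26 in Psmd2, -17 in Psmd12 and -11 in Psmd11. These 4 were chosen for holding the motif, and over all regulatory particle windows with it the match lay between -125 (Psmd4) and -6 (Psmd13). The antioxidant response element, searched as TGACNNNGC on both strands, stood in 2 of 13 core windows and 3 of 18 regulatory particle windows, 16.1% of all member windows against 12.4% of all windows. Among the core genes both were catalytic. In capitals it is printed for Psmb5 (chr14:54618023-54618095, minus strand) and Psmb6 (chr11:70525257-70525356, plus strand).
Psmb5: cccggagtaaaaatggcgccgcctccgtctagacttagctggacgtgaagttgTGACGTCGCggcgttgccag
Psmb6: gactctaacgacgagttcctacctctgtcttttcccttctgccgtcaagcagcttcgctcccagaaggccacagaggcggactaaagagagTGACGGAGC

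The CCAAT box (CCAAT) stood in 53.8% of core windows and 27.8% of regulatory particle windows, against 37.4% of all windows. The GC box (GGGCGG) stood in 38.5% and 72.2%, against 35.7%. Matches of CCGGAAG and GGGCGG can overlap at their ends, both are rich in G and C, and the windows were not matched on base composition. A match is a description of these letters only.

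Values were FPKM, fragment counts divided by gene length and by library size, as deposited, so levels of different genes can be compared per length but the read depth behind them is unknown. Sums of FPKM were 344338 to 405123 per library. The library Ctrl replicate 1 differed from the rest: 44.1% of its rows were 0, and 24.7% to 27.3% in the other libraries. In that library all 14 tested core members lay below the mean of Ctrl replicates 2 and 3, by a median of 0.30 on the log2(FPKM + 1) scale, as did 16 of 20 regulatory particle members, by a median of 0.10, whereas the median of 12699 genes was 0.015 higher. Counts of calls against Ctrl are therefore also given without it. Nppa, a heart transcript, reached 51.2 to 63.9 FPKM in the 3 IR libraries and Ctrl replicates 2 and 3, and 0 to 0.26 FPKM in the other 7. This split, its origin unstated, was treated as a possible batch. IR against Ctrl without Ctrl replicate 1 lies inside it. The split cannot be told apart from IR against Ab_IR or L_IR except through Ctrl replicate 1. Immunoglobulin genes held 9.16% to 22.9% of the FPKM sum. Of 10 HSC sort and stem cell genes, 4 to 7 reached 1 FPKM per library, and Mecom stayed at 0.04 to 0.25 FPKM. Cd34, absent from the sorted cells by the gate, was at 19.0 to 20.6 FPKM in Ctrl and 3.66 to 3.91 FPKM in IR, and the granulocyte gene Mpo at 2859 to 3432 FPKM over the 12 libraries. In bulk samples, fewer cells of a type and less RNA per cell cannot be told apart.

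Of the 36 members, 34 were well expressed and a pair was not. Psma8, the alpha subunit of the testis proteasome, was listed at 2.02, 0.82 and 0.52 FPKM in Ctrl and at 0.44 to 1.23 FPKM in the other groups. Psmb11, the beta subunit of the thymus proteasome, was listed at 0 to 0.02 FPKM. Psma8 passed the filter of 1 FPKM in 3 of the fitted libraries only in Ab_IR against Ctrl, where Ctrl replicate 1 was one of those 3 libraries.

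Levels of the other members spanned 4.90 to 114 FPKM in the mean of the 12 libraries. Psma6, an alpha ring gene, led the core at 114 FPKM, followed by Psmb2 at 95.5 FPKM. Psmc1, a gene of the ATPase ring, led the regulatory particle at 92.6 FPKM, but not in every group. Psmc5 was higher in Ab_IR (93.2 FPKM against 84.7 FPKM) and L_IR (87.8 FPKM against 86.7 FPKM). Psmc3 was higher in Ab_IR (87.3 FPKM) and in Ctrl (82.9 FPKM against 81.3 FPKM). In the mean of Ctrl replicates 2 and 3, Psmc1 was above Psmc3 (90.5 FPKM against 86.7 FPKM). The gap between Psma6 and Psmb2 was 1.19-fold, while Psmb2 and Psmc1 differed by 1.03-fold, less than the 1.29-fold range of Psmb2 over the libraries. The lowest core member was Psma3, at 24.9 FPKM. The 3 chaperones of base assembly stood near the bottom, Psmd10 at 16.7 FPKM, Psmd5 at 11.6 FPKM and Psmd9 at 4.90 FPKM. Merged exon lengths had a median of 2335 bp in the core and 2938.5 bp in the regulatory particle. The spread within a group was small: the median SD of a member on the log2 scale was 0.0357 in IR, 0.0314 in L_IR, 0.0653 in Ab_IR and 0.124 in Ctrl.

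The first comparison, IR against Ctrl, asks how the genes stood in HSCs 3 days after IR. The calls were mostly genes of the regulatory particle, all in the direction of higher levels in IR. Of 34 tested members, 9 were higher in IR at an adjusted p under 0.05 and 0 were lower, 26.5% against a background of 17.5% of all 12072 tested genes higher and 25.5% lower. Of the 9, 8 belonged to the regulatory particle (8 of 20) and 1 to the core (1 of 14). The ATPase ring gave 4 of 6 (Psmc1, Psmc2, Psmc4 and Psmc5), the other base genes 1 of 3 (Psmd2), the lid 3 of 8 (Psmd3, Psmd11 and Psmd12), and the assembly chaperones 0 of 3. The alpha ring gave 1 of 7 (Psma6), and none of the 7 beta genes was called. The IR libraries lay above all Ctrl libraries for 15 of 36 members, 12 of them of the regulatory particle, and below for 0, where 25.2% and 32.8% of all tested genes did so. The median log2 fold change was 0.19 in the regulatory particle and 0.13 in the core, against -0.05 over all genes. The core median minus that of the regulatory particle, -0.063, was -0.11 without Ctrl replicate 1 but -0.00057 without Ctrl replicate 2 and -0.017 without Ctrl replicate 3.

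The rises were moderate in size. No member was called with a more than 2-fold change in any of the 6 comparisons, a call that 7.60% of all tested genes met in IR against Ctrl, 7.57% in Ab_IR against IR, 6.22% in L_IR against IR, 0.533% in Ab_IR against L_IR and, with Ctrl as the other group, 0.923% in Ab_IR and 2.65% in L_IR.

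Psmc1 (chromosome 12, 100110154 to 100123405) was listed at 62.94, 93.23 and 87.75 FPKM in Ctrl and at 114.08, 118.65 and 120.2 FPKM in IR. All IR libraries lay above all Ctrl libraries, and Ctrl replicate 1 was the lowest. Its mean was 81.3 ± 16.1 FPKM (SD, n = 3) in Ctrl and 118 ± 3.18 FPKM in IR. On the log2 scale Psmc1 rose by 0.55 (SE 0.148, limma, adjusted p 0.0257). Without Ctrl replicate 1 the fold change was 0.38 (adjusted p 0.000901).

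Psmd12 (chromosome 11, 107479484 to 107504362), a lid gene, was listed at 32.69, 38.03 and 34.55 FPKM in Ctrl and at 48.61, 48.39 and 48.33 FPKM in IR. The groups did not overlap, and the log2 fold change was 0.46 (SE 0.0705, limma, adjusted p 0.00308). Psmd3 (chromosome 11, 98682554 to 98695979), also of the lid, was listed at 34.88, 32.66 and 38.18 FPKM in Ctrl and at 50.05, 48.95 and 46.77 FPKM in IR, and rose by 0.45 (adjusted p 0.00396).

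Psmd2 (chromosome 16, 20651652 to 20663414), a large base gene whose product docks ubiquitin receptors, was listed at 79.06, 71.59 and 76.65 FPKM in Ctrl and at 101.09, 103.31 and 101.71 FPKM in IR. Its log2 fold change was 0.43 (SE 0.0617, adjusted p 0.00244), and Ctrl replicate 1 was here the highest Ctrl library. Psmc5 (chromosome 11, 106256154 to 106263120), an ATPase, was listed at 70.08, 80.71 and 77.43 FPKM in Ctrl and at 93.02, 94.67 and 94.62 FPKM in IR, and rose by 0.31 (adjusted p 0.014).

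Psma6 (chromosome 12, 55384222 to 55418454) was the core gene that rose. It was listed at 90.4, 111.93 and 109.02 FPKM in Ctrl and at 125.36, 124.33 and 129.67 FPKM in IR, and rose by 0.29 (SE 0.0935, adjusted p 0.0469).

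**Figure D1:**
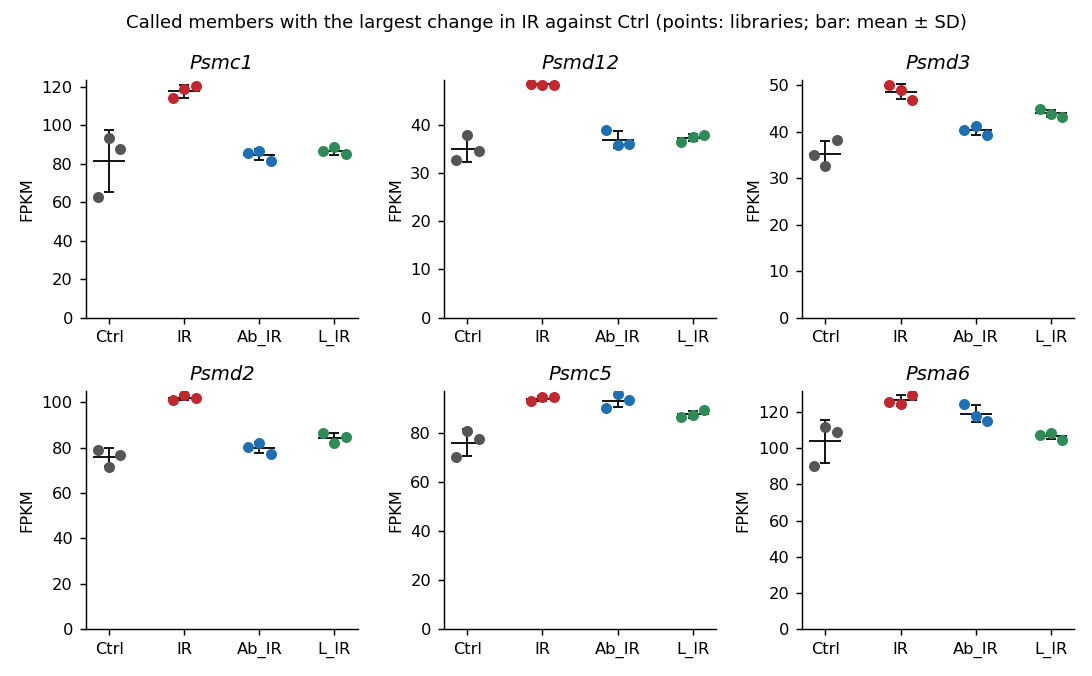
FPKM of the 6 members with the largest change among those called in IR against Ctrl (y axes from 0) in the 4 groups, with points for the 3 libraries of a group and bars for mean ± SD. All IR libraries sit above all Ctrl libraries in each of the 6 genes, and Psmc1 runs from 62.94 FPKM in Ctrl replicate 1 to 120.2 FPKM in IR.

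Of the 7 regulatory particle genes higher in IR that had a promoter window, 5 held CCGGAAG (Psmc1, Psmc2, Psmd2, Psmd11 and Psmd12). Of the 17 genes of the regulatory particle with a window, 9 held it and 5 of these were higher in IR, against 2 of the 8 without it, with median log2 fold changes of 0.22 and 0.10. The antioxidant response element split the same genes in the other direction, with medians of -0.08 in the 3 that held it and 0.21 in the 14 that did not. The medians with and without the CCAAT box were 0.26 and 0.19, and those with and without the GC box 0.21 and 0.18. The core went the other way for all but CCGGAAG, held there by Psma6 alone (0.29, against 0.09 without it). With and without the antioxidant response element the core medians were 0.36 (Psmb5 and Psmb6) and 0.08. They were 0.09 and 0.22 for the CCAAT box, and 0.05 and 0.25 for the GC box. These groups are small, and the same split was not computed over all genes.

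None of the catalytic beta genes passed the test on the values as deposited. Psmb5, the chymotrypsin-like subunit, was listed at 38.46, 68.19 and 61.23 FPKM in Ctrl and at 73.25, 69.83 and 69.13 FPKM in IR. Psmb6, the caspase-like subunit, was listed at 25.02, 49.2 and 50.59 FPKM in Ctrl and at 49.03, 50.19 and 52.16 FPKM in IR. Psmb7, the trypsin-like subunit, was listed at 23.77, 36.74 and 30.16 FPKM in Ctrl and at 34.35, 34.28 and 34.27 FPKM in IR. In each the lowest value was that of Ctrl replicate 1. The log2 fold changes of 0.37, 0.34 and 0.20 did not pass the test (limma, adjusted p 0.189, 0.338 and 0.323), and without that library they were 0.13, 0.02 and 0.04. With the trend against exon length taken out, 15 members were higher and 0 lower, where 22.6% and 22.9% of genes were called. The beta genes Psmb5 (0.39, adjusted p 0.0415) and Psmb2 were among them, and Psmb5 was also higher with that trend and Ctrl replicate 1 both left out (0.25, adjusted p 0.00887).

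Without Ctrl replicate 1, which also keeps the comparison inside the Nppa split, 10 members were higher and 2 lower, where 25.9% of genes were higher and 32.5% lower. Psmd1, a base scaffold gene, joined the higher ones (0.22, adjusted p 0.00834), and the lower ones were Psmb1 (-0.18, adjusted p 0.0194) and Psmd9 (-0.42, adjusted p 0.00153). The regulatory particle then gave 9 higher and 1 lower and the core 1 higher and 1 lower, with medians of 0.14 and 0.02 against -0.05 over all genes. Psmd12, Psmd3, Psmd2, Psmc5 and Psma6 then had 0.41, 0.45, 0.46, 0.25 and 0.19, each still called. With any single IR library left out 3 members were called higher, namely Psmd2, Psmd3 and Psmd12. The share of all genes called was not computed for those fits, so the lower count cannot be set against it. With immunoglobulin genes left out, which moved the median of all genes by 0.099, 15 were higher and 0 lower, where 23.9% and 18.7% of genes were called.

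**Figure D2:**
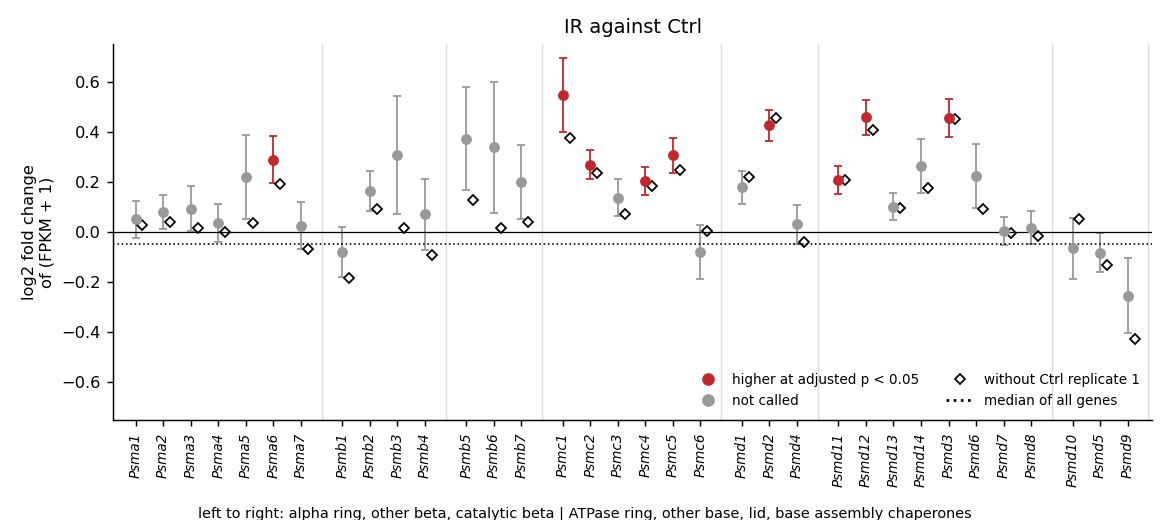
Log2 fold change of log2(FPKM + 1) in IR against Ctrl for the 34 tested members, grouped by place in the complex, with SE bars, red points for members at adjusted p under 0.05 and open diamonds for the value without Ctrl replicate 1. Red points sit mainly in the ATPase ring, Psmd2 and the lid, up to 0.55 in Psmc1, and the dotted line marks the median of all genes at -0.05.

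Marker genes of other cells differed between IR and Ctrl as well, and the sums of all 9 lists other than the heart list did not overlap between these groups. The summed level of 9 neutrophil and monocyte genes was 14400.2 to 14724.7 FPKM in IR and 9879.17 to 11601.7 FPKM in Ctrl, with S100a9 at 3572.8 to 3863.53 FPKM against 1109.19 to 1813.68 FPKM. The monocyte gene Ly6c2 of the same list went the other way, at 33.98 to 37.35 FPKM against 148.46 to 174.27 FPKM, and Mpo and Elane overlapped between the groups. The sum of 8 erythroid genes was 520.05 to 526.96 FPKM in IR and 2924.35 to 3572.94 FPKM in Ctrl. The HSC sort genes, which include Cd34 and Flt3 that the gate excludes, summed to 69.42 to 76.61 FPKM in IR and 92.32 to 99.64 FPKM in Ctrl. Within them Kit was at 6.7 to 7 FPKM against 21.28 to 25.45 FPKM and Flt3 at 0.96 to 1.22 FPKM against 9.13 to 12.07 FPKM, while Ly6a, which encodes Sca-1, was at 53.66 to 61.47 FPKM against 25.92 to 41.13 FPKM. Plasma cell genes summed to 990.92 to 1014.3 FPKM in IR against 632.35 to 743.89 FPKM in Ctrl. Sums were lower in IR for megakaryocyte genes (12.01 to 13.98 FPKM against 51.42 to 67.55 FPKM), mast cell and basophil genes (203.82 to 211.74 FPKM against 563.15 to 649.37 FPKM), macrophage genes (48.08 to 54.09 FPKM against 79.05 to 86.91 FPKM), T cell genes (6.62 to 8.56 FPKM against 12.39 to 14.64 FPKM) and B cell genes (24.08 to 24.81 FPKM against 26.8 to 32.15 FPKM). Within the macrophage list Mrc1 went the other way, at 5.42 to 6.35 FPKM in IR against 3.11 to 3.25 FPKM in Ctrl. The part of these lists in the result was not tested.

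The ratio of core to regulatory particle was then followed library by library, as the difference of the mean log2(FPKM + 1) of the 14 core and 20 regulatory particle genes. It was 0.27, 0.60 and 0.55 in Ctrl, 0.45, 0.46 and 0.47 in IR, 0.54, 0.56 and 0.57 in Ab_IR and 0.52, 0.52 and 0.50 in L_IR. Ctrl replicate 1 was the lowest of all 12, and the other Ctrl libraries lay above all IR libraries. The regulatory particle mean was 5.39 ± 0.0104 (SD, n = 3) in IR, above every Ctrl library (5.15 to 5.29). The core mean was 5.85 ± 0.0107 in IR, inside the Ctrl range of 5.42 to 5.89. Against the 9 genes of the base alone, the core lay 0.13 to 0.15 lower in IR and 0.02 to 0.06 higher in Ab_IR, with L_IR between them at -0.06 to -0.04. In Ctrl this difference was -0.29, 0.07 and -0.00017, so that Ctrl replicate 1 lay below and the others above all IR libraries. These means carry no test of their own.

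**Figure D3:**
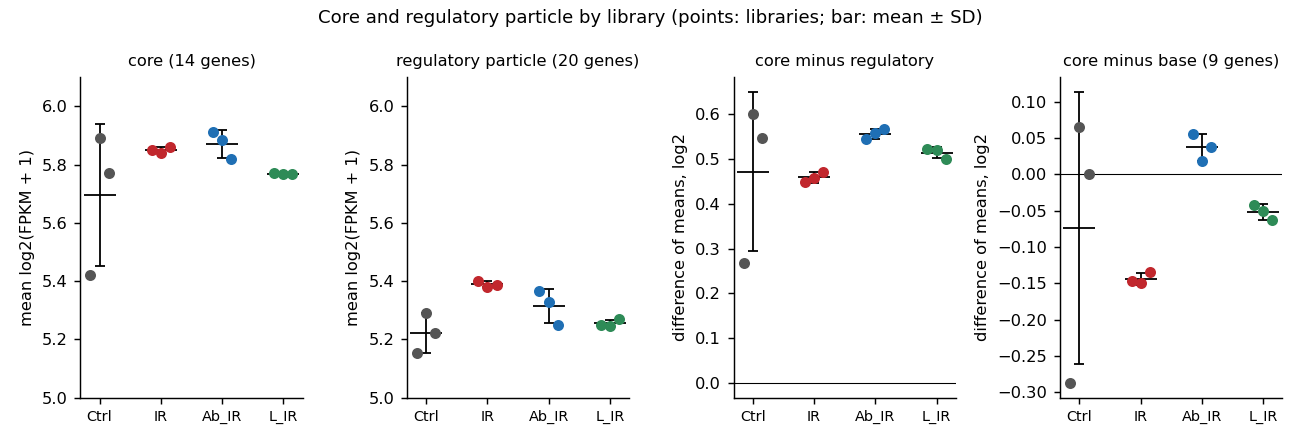
Mean log2(FPKM + 1) of core and regulatory particle genes, and the difference of core from the whole regulatory particle and from its base, by library (points) with mean ± SD (bars). The y axes do not start at 0, and the core minus base values of IR lie below those of Ab_IR and L_IR, at -0.15 to -0.13.

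The next pair of comparisons asks where the members stood in the Ab_IR and L_IR groups relative to IR. Both share the IR libraries and are given side by side. In Ab_IR against IR, 5 of 34 members were higher and 9 lower, 14.7% and 26.5% against 39.4% and 29.4% of 12067 genes. In L_IR against IR, 3 were higher and 22 lower, 8.82% and 64.7% against 40.8% and 26.0% of 12163 genes. The lower members in L_IR were all 6 ATPase genes, 7 of 8 lid genes, 2 of 3 other base genes, 1 of 3 assembly chaperones (Psmd10), 3 of 7 alpha genes, 2 of 3 catalytic beta genes and 1 of 4 other beta genes (Psmb2). The regulatory particle counted 16 lower in L_IR and 7 lower in Ab_IR, and the core 6 and 2. The median log2 fold change in L_IR was -0.14 in the regulatory particle and -0.06 in the core against 0.07 over all genes, and in Ab_IR it was -0.09 and 0.01 against 0.06.

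Psmc1 was listed at 85.84, 86.75 and 81.66 FPKM in Ab_IR and at 86.39, 88.84 and 85 FPKM in L_IR, all below the IR libraries. It fell by 0.47 in Ab_IR (SE 0.0382, limma, adjusted p 3.27e-05) and by 0.44 in L_IR (SE 0.0291, adjusted p 1.73e-05), on the log2 scale. Psmd12 was listed at 39.06, 35.92 and 36.01 FPKM in Ab_IR and at 36.53, 37.48 and 37.97 FPKM in L_IR. It fell by 0.38 (adjusted p 0.000134) and by 0.37 (adjusted p 1.5e-05). In both genes the values lay near those of Ctrl replicates 2 and 3.

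Psmd2 fell by 0.35 in Ab_IR (adjusted p 8.67e-05) and by 0.27 in L_IR (adjusted p 9.16e-05), and Psmd3 by 0.26 (adjusted p 0.000633) and by 0.14 (adjusted p 0.0062). Psmc5 had -0.01 in Ab_IR (adjusted p 0.722), where it was listed at 90.43, 95.8 and 93.34 FPKM, and fell by 0.10 in L_IR (adjusted p 0.00666).

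Among the catalytic genes, Psmb5 was listed at 62.15, 63.6 and 61.6 FPKM in Ab_IR and at 57.69, 56.6 and 55.39 FPKM in L_IR. It fell by 0.18 in Ab_IR (adjusted p 0.00327) and by 0.32 in L_IR (SE 0.0303, adjusted p 9.99e-05), with both groups below all IR libraries. Psmb7 had 0.03 in Ab_IR (adjusted p 0.509) and fell by 0.15 in L_IR (adjusted p 0.000888). Psmb6 overlapped IR in both groups, with 0.12 (adjusted p 0.0752) and -0.02 (adjusted p 0.742).

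Psmd9, a chaperone that binds the ATPases while the base is assembled, went the other way. It was listed at 3.69, 3.91 and 3.66 FPKM in IR, 6.88, 6.36 and 6.23 FPKM in Ab_IR and 4.44, 4.58 and 4.84 FPKM in L_IR. The log2 fold change was 0.66 in Ab_IR (SE 0.0515, adjusted p 2.71e-05) and 0.24 in L_IR (SE 0.0461, adjusted p 0.00304), the highest of any member in each comparison. The other members higher in Ab_IR were Psmb1, Psmb4, Psmd4 and Psmd8, by 0.17 to 0.26, and in L_IR Psma7 and Psmb1, by 0.08 and 0.10. Psma3, the lowest core member, was listed at 26.22, 27.18 and 26.87 FPKM in IR, 24.73, 23.69 and 23.01 FPKM in Ab_IR and 23.05, 24.38 and 24.79 FPKM in L_IR, and fell by 0.16 and by 0.15 (adjusted p 0.00752 and 0.00741).

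**Figure D4:**
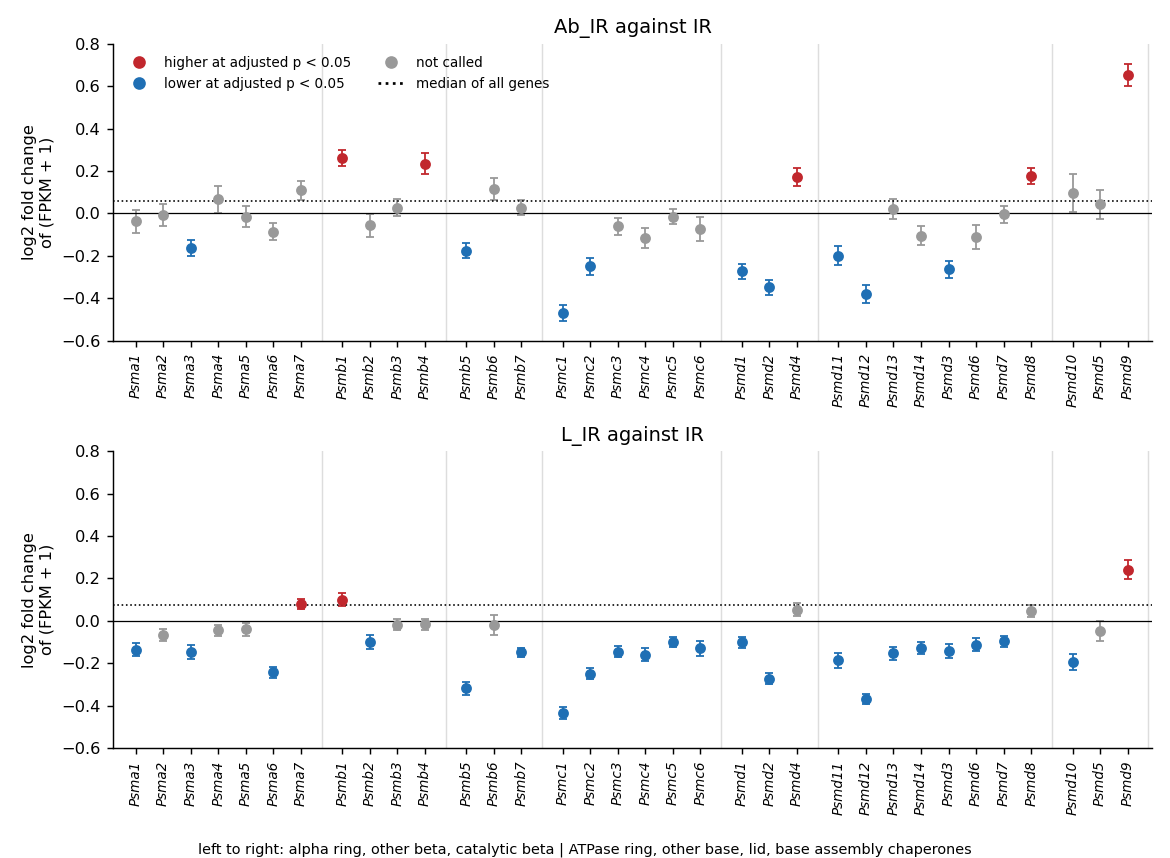
Log2 fold change of log2(FPKM + 1) with SE for each tested member in Ab_IR against IR (top) and L_IR against IR (bottom), with red for higher and blue for lower members at adjusted p under 0.05. In L_IR all 6 ATPase genes are blue, down to -0.44 in Psmc1, and Psmd9 is the highest member in both panels.

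These contrasts cross the Nppa split. With a term for the split, estimable through Ctrl replicate 1 alone, Psmc1 had 0.05 in Ab_IR and 0.08 in L_IR (adjusted p 0.569 and 0.342), Psmb5 was higher by 0.56 and 0.42, and the direction of Psmb7 in L_IR turned to 0.32 (adjusted p 0.0252), with Psmb6 at 0.95 (adjusted p 1.97e-05). Then 13 members were higher and 6 lower in Ab_IR, where 36.0% and 27.6% of genes were called, and 10 and 5 in L_IR, where 34.0% and 22.8% were. With immunoglobulin genes left out, L_IR gave 7 higher and 9 lower (49.2% and 18.8% of all genes), and with scaling by the median log2 ratio 1 and 27 (32.7% and 33.0% of all genes). Ab_IR gave 5 and 14 under both, beside 34.8% and 32.5% of all genes without immunoglobulin genes and 34.8% each way under that scaling. In one fit of all 12 libraries L_IR gave 0 higher and 8 lower (29.3% and 18.1% of all genes). Without IR replicate 2 or L_IR replicate 2 it gave 1 higher, with no share of all genes computed for those fits. With the trend against exon length taken out Ab_IR gave 2 higher and 22 lower (34.5% and 33.7% of all genes). In L_IR the members' median lay below that of all genes by 0.19 as deposited and by 0.18 without immunoglobulin genes. Both scalings move all genes of a library by the same or nearly the same amount. They could therefore hardly change this difference, which is no check of the result. Against the IR sums given before, megakaryocyte genes summed to 135.64 to 139.76 FPKM in Ab_IR and 83.62 to 89.2 FPKM in L_IR, and mast cell and basophil genes to 763.49 to 813.54 FPKM and 469.54 to 492.31 FPKM. Erythroid genes summed to 3126.19 to 3270.64 FPKM in Ab_IR and 1544.97 to 1601.22 FPKM in L_IR, and plasma cell genes to 1084.02 to 1172.92 FPKM and 1466.42 to 1491.25 FPKM. Members of the plasma cell list went both ways. In Ab_IR Jchain was at 919.37 to 1007.76 FPKM against 707.03 to 728.05 FPKM in IR, and Sdc1 and Tnfrsf17 were also higher. Xbp1, Mzb1, Prdm1 and Irf4 were lower there without overlap, with Xbp1 at 91.08 to 100.08 FPKM against 199.43 to 200.97 FPKM. In L_IR only Xbp1 and Mzb1 of this list were lower than in IR. The neutrophil and monocyte sums were lower than in IR, at 10696 to 11321.3 FPKM and 8481.86 to 8703.87 FPKM. In this list S100a8, S100a9, Ltf and Ctsg were lower than in IR in both groups, and Mpo overlapped IR in both. Ly6c2 was higher in both, at 98.49 to 103.45 FPKM in Ab_IR and 90.34 to 95.84 FPKM in L_IR against 33.98 to 37.35 FPKM. Elane, Prtn3 and Camp were higher than in IR in Ab_IR and lower in L_IR. The sums of the B cell, T cell, macrophage and HSC sort lists were above IR in both groups without overlap. B cell genes summed to 40.22 to 40.26 FPKM and 44.31 to 45.96 FPKM, and T cell genes to 14.8 to 16.81 FPKM and 23.58 to 24.69 FPKM. Macrophage genes summed to 86.13 to 93.04 FPKM and 78.69 to 85.35 FPKM, and HSC sort genes to 83.94 to 91.42 FPKM and 90.51 to 91.72 FPKM. Among the HSC sort genes Kit, Cd34 and Flt3 were higher than in IR in both groups, while Ly6a and Hlf were lower. Ly6a was at 35.67 to 41.23 FPKM in Ab_IR and 45.4 to 45.76 FPKM in L_IR against 53.66 to 61.47 FPKM in IR. The macrophage gene Mrc1 was also lower than in IR in both groups. The part of these lists was not tested.

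Ab_IR and L_IR were also compared with each other, on the same side of the Nppa split. Of 34 members, 9 were higher in Ab_IR and 2 lower, 26.5% and 5.88% against 18.2% and 19.8% of 12194 genes. The core gave 5 higher (Psma6, Psmb1, Psmb4, Psmb5 and Psmb7) and 0 lower, and the regulatory particle 4 higher (Psmd8, Psmd9, Psmd10 and Psmd13) and 2 lower (Psmd1 and Psmd3). No ATPase gene passed the test. One fit of all 12 libraries gave 2 higher and 1 lower (8.41% and 11.8% of all genes), and taking out the exon length trend 4 and 4 (16.8% and 16.5% of all genes). With immunoglobulin genes left out, which moved the median of all genes by -0.12, 1 was higher and 8 lower (6.99% and 36.7% of all genes), and the members' median was 0.05 above that of all genes against 0.07 as deposited. Without L_IR replicate 3 the count was 3 higher, and with L_IR replicate 1 or 2 left out 5 higher. Without each of these libraries, and without Ab_IR replicate 1 or 3, 1 was lower. For these fits with a library left out the share of all genes called was not computed.

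Psmd9 differed most, by 0.41 (SE 0.0526, limma, adjusted p 0.00118). Psmd10, known as gankyrin and likewise a chaperone of base assembly, was listed at 19.96, 18.52 and 15.45 FPKM in Ab_IR and at 14.3, 14.38 and 14.61 FPKM in L_IR, a difference of 0.29 (SE 0.0842, adjusted p 0.0313). The groups did not overlap, but the Ab_IR libraries were spread. Psmb4, a beta ring gene, was listed at 101.81, 104.29 and 92.08 FPKM in Ab_IR and at 84.16, 84.44 and 80.94 FPKM in L_IR, a difference of 0.25 (SE 0.0524, adjusted p 0.00895).

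Against Ctrl, Ab_IR had 0 of 35 tested members higher and 0 lower by limma, where 1.45% and 0.651% of 12134 genes were called, and 4 members had an unadjusted p under 0.05. L_IR had 0 and 0 of 34, where 4.76% and 4.08% of 12251 genes were called, with 2 at an unadjusted p under 0.05. With all 12 libraries in one fit 5 members were higher and 0 lower in Ab_IR, where 8.55% and 10.8% of all genes were called, and 3 and 0 in L_IR, where 10.8% and 11.1% were. Both contrasts cross the Nppa split, and calls of all genes rose with a term for it as well: 20 members were higher and 3 lower in Ab_IR, beside 29.3% and 29.6% of all genes, and 18 and 2 in L_IR, beside 27.6% and 26.7%. Without Ctrl replicate 1 limma called 0 of 34 members higher and 0 lower in Ab_IR, where 3.56% and 2.09% of genes were called, with 4 members at an unadjusted p under 0.05. A p that misses the threshold does not show that levels were alike: Psmc5 had 0.29 in Ab_IR (SE 0.0796, adjusted p 0.138) and 0.21 in L_IR (SE 0.0723, adjusted p 0.141), with all libraries of both groups above Ctrl. Without Ctrl replicate 1, L_IR had 2 higher, Psmd3 (0.31, adjusted p 0.0301) and Psmd2 (0.18, adjusted p 0.0487), and 0 lower, where 10.4% and 9.95% of genes were called. Without immunoglobulin genes, 12 members were higher and 0 lower in L_IR, beside 17.6% and 2.05% of all genes, with the median of all genes moved by 0.18 and that of the members 0.078 above it.

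The other genes of the pathway came from a list of 35 names, of which 33 were found: the inducible catalytic subunits, activators and inhibitors, assembly factors, bound receptors and deubiquitinases, the NFE2L1 axis and ubiquitin supply. In IR against Ctrl 5 were higher and 5 lower, where 17.5% and 25.5% of all genes were. Without Ctrl replicate 1 the counts were 7 and 14, where 25.9% and 32.5% of all genes were called. With all libraries in, the higher ones were Ddi2, the protease that cuts NFE2L1, Uba1, the main ubiquitin-activating enzyme, the unfoldase Vcp, the proteasome adaptor Ecpas and Psme3, a nuclear activator. The lower ones were Ngly1, which removes the sugars of NFE2L1, Psme1, an interferon-inducible activator, the regulator Psmf1, the assembly chaperone Psmg2 and Zfand5. Uba1, Vcp, Ecpas and Psme3 had log2 fold changes of 0.50, 0.35, 0.25 and 0.24, and Psme1, Zfand5, Psmf1 and Psmg2 of -0.61, -0.57, -0.55 and -0.44. Nfe2l1 itself had 0.03 (adjusted p 0.834).

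Ddi2 was listed at 17.01, 12.04 and 13.45 FPKM in Ctrl, 24.78, 25.28 and 24.75 FPKM in IR, 12.27, 12.44 and 12.41 FPKM in Ab_IR and 15.37, 14.33 and 14.98 FPKM in L_IR. All IR libraries lay above all others. It rose by 0.79 in IR against Ctrl (SE 0.121, limma, adjusted p 0.00299) with 0.92 when Ctrl replicate 1 was left out, and fell by 0.96 in Ab_IR (adjusted p 5.96e-07) and by 0.71 in L_IR against IR (adjusted p 3.03e-06). Ngly1 ran the other way, at 3.88, 5.89 and 5.27 FPKM in Ctrl, 2.74, 2.91 and 2.56 FPKM in IR, 5.48, 5.26 and 4.75 FPKM in Ab_IR and 4.33, 4.77 and 4.86 FPKM in L_IR, with -0.67 in IR against Ctrl (SE 0.137, adjusted p 0.0089) and -0.82 without Ctrl replicate 1.

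In the immunoproteasome the inducible Psmb8, Psmb9 and Psmb10 take the places of Psmb5, Psmb6 and Psmb7. Psmb8 was listed at 28.64, 44.27 and 43.7 FPKM in Ctrl, 31.01, 33.23 and 33.04 FPKM in IR, 47.26, 50.29 and 47.73 FPKM in Ab_IR and 47.82, 46.16 and 47.5 FPKM in L_IR. Psmb9 was listed at 10.58, 19.75 and 17.6 FPKM in Ctrl, 10.3, 10.44 and 10.13 FPKM in IR, 19.5, 20.43 and 19.81 FPKM in Ab_IR and 18.53, 16.76 and 18.28 FPKM in L_IR. Psmb10 was listed at 24.44, 36.6 and 35.68 FPKM in Ctrl, 27.84, 27.27 and 26.78 FPKM in IR, 40.55, 39.05 and 38.3 FPKM in Ab_IR and 37.96, 35.65 and 35.97 FPKM in L_IR. Ctrl replicate 1 was the lowest Ctrl library in all 3. Against Ctrl they had -0.23, -0.55 and -0.21 (limma, adjusted p 0.317, 0.0808 and 0.312), and without that library all 3 were lower, by -0.43, -0.80 and -0.39 (adjusted p 0.000587, 0.000123 and 0.000537). Psmb9 was higher than in IR by 0.89 in Ab_IR and by 0.74 in L_IR (adjusted p 1.25e-06 and 8.39e-06), and Psmb8 and Psmb10 were higher in both as well.

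**Figure D5:**
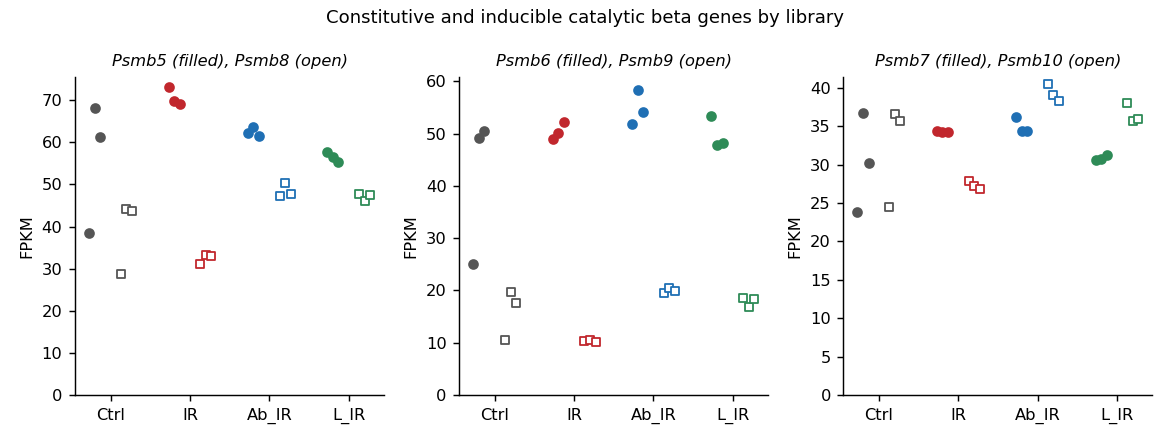
FPKM by library (y axes from 0) of each constitutive catalytic gene (filled points) with its inducible counterpart (open squares): Psmb5 with Psmb8, Psmb6 with Psmb9 and Psmb7 with Psmb10. In IR the inducible genes are low, with Psmb9 at 10.13 to 10.44 FPKM, while Psmb5 is at 69.13 to 73.25 FPKM. Ctrl replicate 1 is low in both kinds.

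In Ab_IR against IR 18 of the 33 were higher and 8 lower, where 39.4% and 29.4% of all genes were. In L_IR against IR 11 were higher and 8 lower, where 40.8% and 26.0% of all genes were, so this count did not exceed the background. Between Ab_IR and L_IR 13 were higher and 5 lower, where 18.2% and 19.8% of all genes were. The largest differences there were those of Rps27a, a fusion of ubiquitin with a ribosomal protein, by 0.38 (adjusted p 0.000432), and of Akirin2, which carries proteasomes into the nucleus, by 0.35 (adjusted p 0.00738). Rps27a was listed at 346.65, 327.24 and 341.24 FPKM in Ab_IR and at 263.62, 254.65 and 261.07 FPKM in L_IR, and Akirin2 at 23.5, 20.49 and 20.18 FPKM and at 16.3, 15.58 and 17.63 FPKM. Zfand5, whose product binds the proteasome, was listed at 13.75, 13.16 and 10.48 FPKM in Ctrl and at 7.51, 8.51 and 8 FPKM in L_IR. It was the one gene of the list called between these groups (-0.57, limma, adjusted p 0.027), where 4.76% of all genes were higher and 4.08% lower. Without Ctrl replicate 1 the list had 2 higher and 5 lower, where 10.4% and 9.95% of all genes were called. For Ab_IR and Ctrl limma called 0 of the 33, with 2 at an unadjusted p under 0.05, and 0 without Ctrl replicate 1 as well.

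Some members have near copies in the genome. The pseudogene Psma5-ps was listed at 4.27 to 6.71 FPKM and Psmb7-ps2 at 0 to 0.34 FPKM, so reads of Psma5 may be divided between gene and copy.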

How the data were processed

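The 12 files hold FPKM per gene with 2 decimals, and the authors' processing notes name fastp, HISAT2 and StringTie and the builds GRCm38 and mm10, whereas the study's methods name fastp, RSEM and DESeq2. Depth is unknown: in short genes the step size that worked best put 27.8% to 42.9% of low values within 0.1 of a whole multiple, where 20% would fall there without steps, so whole reads could not be recovered for nearly all genes. No library pair held identical values. Groups come from the titles in the labels. Each comparison was a fit of limma 3.58.1 (R 4.3.3, moderated with a mean trend) on log2(FPKM + 1) in its own 2 groups. A gene entered when 3 or more of the fitted libraries reached 1 FPKM, and p-values were adjusted by Benjamini-Hochberg over all genes. A call is an adjusted p under 0.05. The authors' DESeq2 test was not applied, since FPKM are not counts. Scripts were tested on simulated data.

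The members, the list of pathway genes, the marker lists and the motifs were chosen with earlier results of these data known. Named with per-library values were the catalytic genes, the 6 called members with the largest change in IR against Ctrl and the 3 in each other comparison, the highest and lowest member of core and regulatory particle, members under the filter, the inducible genes and the 2 most changed called pathway genes per comparison. Other members were named where a count listed them, after their values were seen. Positions and exon lengths are of the GENCODE annotation of GRCm38, promoters of RefSeq. Alternatives were a pseudocount of 0.1, no filter, a mean of at least 10 FPKM, quantile and median ratio scaling, removal of 306 immunoglobulin genes, a limma fit with no trend, a joint fit of the 12 libraries, a replicate block, the Nppa split as a term, summed rows and leaving out each library. Trends against exon length were taken out as an alternative chosen after seeing the data. Plots used matplotlib 3.10.9 (Python 3.11.15).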

Additional observations from a re-analysis of the deposited data

How the results depend on the processing

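Of the named members' fold changes under the alternatives, 1234 kept direction and call, 67 lost the call and 64 gained it in the same direction, 18 changed sign with a call on either side of the change, and 68 changed sign without a call. Depth is unknown and groups hold 3 libraries, so small differences cannot be resolved, and the cause of the changes listed here was not tested. Where a count below, such as those of the replicate block, has no share of all genes given above, that share was not computed. Such counts cannot be set against a background.

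Replicate numbers did not pair the samples: deviations from the group mean of same-numbered libraries correlated at -0.27 to 0.21 over 18 pairs. With the replicate block, 6 members were higher in IR against Ctrl, and 4 were higher and 1 lower in Ab_IR against L_IR. The counts of Ab_IR and L_IR against IR were as without the block, at 5 and 9 and at 3 and 22.

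In IR against Ctrl, 15 members were higher with immunoglobulin genes left out, with the exon length trend taken out, and with that trend and Ctrl replicate 1 both left out, where 1 was lower. With the Nppa split as a term 2 were lower. Leaving out single libraries gave 3 to 11 higher and 0 to 2 lower.

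In Ab_IR against IR, 14 were lower under median ratio scaling and with immunoglobulin genes left out. With the Nppa split 13 were higher, and without the length trend 2 were higher and 22 lower. The median change of core minus that of the regulatory particle, 0.10 as deposited, was 0.11 at a mean of at least 10 FPKM, 0.12 without immunoglobulin genes, 0.42 with the split and 0.079 to 0.11 with single libraries left out. With the split Psma3 had 0.070, Psma6 0.20, Psmb5 0.56, Psmc1 0.048 and Psmc5 0.16, and without the length trend Psmb7 had -0.080.

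In L_IR against IR, 1 was higher under median ratio scaling and without the length trend, 7 were higher and 9 lower without immunoglobulin genes, 0 and 8 with all 12 libraries in one fit, and 10 and 5 with the split. The difference of medians, 0.080, was 0.093 without a filter, 0.094 with quantile normalization, 0.42 with the split and 0.064 to 0.096 with single libraries left out. Those left 1 to 3 higher. With the split Psma3 had 0.085, Psma6 0.043, Psmb4 0.47, Psmb5 0.42, Psmb6 0.95, Psmb7 0.32, Psmc1 0.081 and Psmc5 0.072, and without immunoglobulin genes Psmb4 had 0.068.

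In Ab_IR against L_IR, 1 was higher and 8 lower without immunoglobulin genes, where Psmb5 had -0.0043, 1 was lower without trend and with the split, 2 were higher and 1 lower in one fit of all libraries, and 4 and 4 without the length trend. The difference of medians, 0.054, was 0.028 without that trend and 0.039 to 0.058 with single libraries left out, which gave 3 to 10 higher and 1 to 2 lower.

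In Ab_IR against Ctrl, 5 were higher with all 12 libraries in one fit, 20 higher and 3 lower with the split, and 1 higher without the length trend and Ctrl replicate 1. With the split Psma8 had -0.55. In L_IR against Ctrl, 1 was higher at a mean of at least 10 FPKM, under median ratio scaling and without the length trend, 12 without immunoglobulin genes, 3 in one fit of all libraries and without the trend and Ctrl replicate 1, and 18 higher and 2 lower with the split, where Psmd9 had 0.33. Single libraries left out gave 0 to 2 higher.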
